A study of Rattus norvegicus with 145 samples.

Results

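The cerebral cortex of heterozygous Q130 knock-in rats (KI) was compared with that of wild-type rats (WT) at 19 months of age by bulk RNA sequencing. The libraries were chosen by their titles, which give genotype, region and age, and numbered 20 of the 145 in the series. There were 10 KI libraries, from 5 females and 5 males that carried 1 Q130 KI allele, and 10 WT libraries, also from 5 females and 5 males. The rats are of the Long Evans stock, an outbred laboratory rat. Each library came from 1 animal, and the same 20 animals also gave the striatum and the cerebellum at 19 months. The KI animals stand for 1 knock-in allele in heterozygous form, and the labels do not give litters. Cortex from other animals was also sampled at 10 months (20 libraries) and at 24 months (11 libraries). Those animals carry another series of identifiers than the 19-month animals.

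An overlong CAG repeat in the huntingtin gene causes Huntington's disease and lengthens a stretch of glutamines near the start of the protein. Huntingtin is made in neurons throughout the brain, and in a knock-in animal the expanded allele is made from its own locus. The striatum is lost first and most heavily in patients, but the cortex sends the striatum its main excitatory input and is itself affected, so it is sampled beside the striatum in models of the disease. The comparison asks what an expanded allele does to messenger RNA levels in the cortex of aged rats.

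Totals, in units of 1000000 estimated counts, ran from 28.9 to 44.1 in KI libraries and from 30.3 to 47.3 in WT libraries, and the number of genes at 1 CPM (count per 1000000 counts) or more ran from 13657 to 13880 over all 20. Library totals did not separate the genotypes (mean 35.0 in KI and 35.8 in WT; permutation test, 2-sided, p = 0.735, 0.768 adjusted over 3 such measures). The 20 libraries correlated with WT cortex of 24 months at 0.984 to 0.997 (Spearman, across genes), with WT striatum at 0.947 to 0.956 and with WT cerebellum at 0.914 to 0.924, so each was closest to cortex. Cortical marker genes could not be used for this check, because the files hold Ensembl identifiers alone, and of 32883 identifiers 0 could be paired with a symbol. For the same reason huntingtin could not be picked out, and its level in the KI and WT animals is not reported here. One library stood apart: WT female 4 had a mean Spearman correlation of 0.984 with the other 19-month cortex libraries, against 0.990 to 0.993 for the KI libraries.

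No gene passed the adjusted test between KI and WT cortex at 19 months, and 1 gene, lower in KI, passed once a property of the libraries described further on was a covariate. Of 15280 genes tested, edgeR called 0 (0%) at an adjusted p under 0.05, with a smallest adjusted p of 0.748. At an unadjusted p under 0.05 there were 813 genes (5.32%), with 375 higher (2.45%) and 438 lower (2.87%) in KI, and 10 genes had an unadjusted p under 0.001. DESeq2 called 0, with 887 genes at an unadjusted p under 0.05, and limma on the TPM-scale values called 0, with 937 of 17114. In females alone edgeR called 0 (428 unadjusted), and in males alone 0 (649 unadjusted). Leaving out 1 library at a time gave 0 calls in each of the 20 fits, but moved the count at an unadjusted p under 0.05 between 512 and 1710. It was 512 without WT female 4, 1290 without WT female 1, 1292 without WT female 3 and 1710 without KI female 2. Tissue was measured in bulk, where fewer cells of a type and less RNA per cell cannot be told apart.

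The differences that remain possible are small for most genes. The log2 difference between KI and WT had a median SE of 0.0683, and the median 95% interval reached 0.14 to each side, a 1.10-fold change. For 13935 genes (91.2%) the whole interval lay inside a 1.5-fold change in either direction, and for 15058 (98.5%) it lay inside a 2-fold change. Precision followed the level of the gene. Inside 1.5-fold were 76.8% of the tercile of genes with the lowest levels, 97.7% of the middle tercile and 99.1% of the highest. The log2 differences themselves had a median size of 0.06, and the SD between animals of 1 genotype had a median of 0.156 on the log2 CPM scale. Only 65 genes had an estimate beyond 1.5-fold and 6 beyond 2-fold, of which 4 were higher and 2 lower in KI. Those 6 were scarce messages with mean levels of 0.384 to 2.37 CPM and unadjusted p-values of 0.0297 to 0.22, and the intervals of 2 of them excluded 0. The SE of these 6 log2 differences was 0.51 to 1.01.

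**Figure D1:**
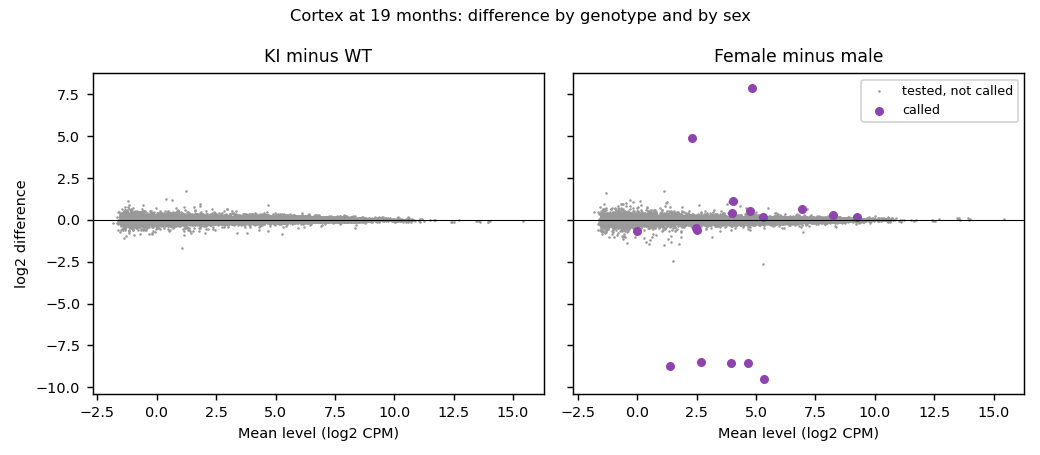
Log2 difference (vertical axis) against mean level in log2 CPM (horizontal axis) for the 15280 genes tested in cortex at 19 months, KI minus WT on the left and female minus male on the right. Grey points are genes not called and purple points are the 17 genes called between the sexes (edgeR); no gene was called between the genotypes, and 5 male-high and 2 female-high genes lie far outside the cloud.

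The sex of the animals, the other labelled factor, was tested in the same libraries. Between females and males edgeR called 17 of 15280 genes (0.111%), with 9 higher in females (0.0589%) and 8 higher in males (0.0524%), and 1629 had an unadjusted p under 0.05 (10.7%). Of the 8 male-high genes, 5 were at 0 to 0.505 CPM in females and at 4.30 to 88.0 CPM in males, so every library matched its labelled sex. Of the 9 female-high genes, 2 differed by more than 4-fold, at 2.37 to 85.7 CPM in females and 0.0239 to 0.578 CPM in males. The smallest difference called was 0.18 log2 units, in a female-high gene that had 39.5 to 45.7 CPM in females and 35.0 to 38.4 CPM in males (edgeR adjusted p = 0.0102). Differences well under 1.5-fold were thus called in these libraries. The largest genotype difference among the 17 was 0.67 log2 units (KI minus WT, unadjusted p = 0.0661), in a female-high gene.

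The identifiers described next were taken by order of p among genes whose mean log2 CPM reached 1 and whose difference had 1 sign in females and in males, 2 higher and 2 lower in KI. None passed the test over all genes, so their values are given as measured. The files do not name these genes, and nothing is said here of what they do.

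ENSRNOG00000061910 was the gene with the smallest p. It had 4.59 CPM in the lowest KI library, a median of 5.38 CPM and 5.75 CPM in the highest, against 5.86, 6.35 and 7.61 CPM in WT libraries. All 10 KI libraries lay below all 10 WT libraries, and no other gene of the 15280 separated the genotypes in either direction (0.00654% of genes). The KI minus WT log2 difference was -0.30 ± 0.060 (SE, n = 10 each; 95% interval -0.43 to -0.18; unadjusted p = 5.72e-05, edgeR adjusted p = 0.748), which puts KI at 81.2% of WT. An equal sign in females and in males was a condition of its choice. KI libraries had 4.59 to 5.56 CPM in females and 4.93 to 5.75 CPM in males. WT libraries had 5.86 to 7.61 CPM in females and 6.26 to 7.36 CPM in males.

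At other ages and in other regions the estimate for ENSRNOG00000061910 did not keep 1 sign. A change of direction was not shown, since neither positive estimate was told apart from no difference. In cortex at 10 months it had 4.42 to 7.39 CPM in KI and 5.48 to 8.67 CPM in WT, a log2 difference of -0.38 ± 0.077 (SE, n = 10 each; edgeR adjusted p = 0.284; DESeq2 adjusted p = 0.00843). At 24 months it had 4.79 to 8.24 CPM in KI (n = 7) and 4.83 to 6.72 CPM in WT (n = 4), a log2 difference of 0.05 ± 0.161 (SE). In the same animals at 19 months the log2 difference was -0.39 ± 0.130 in striatum (SE; unadjusted p = 0.00653, not called by edgeR) and 0.27 ± 0.162 in cerebellum (SE; edgeR adjusted p = 0.562). The difference between cortex and cerebellum in the genotype effect was -0.54 ± 0.173 log2 units (SE; edgeR adjusted p = 0.264).

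**Figure D2:**
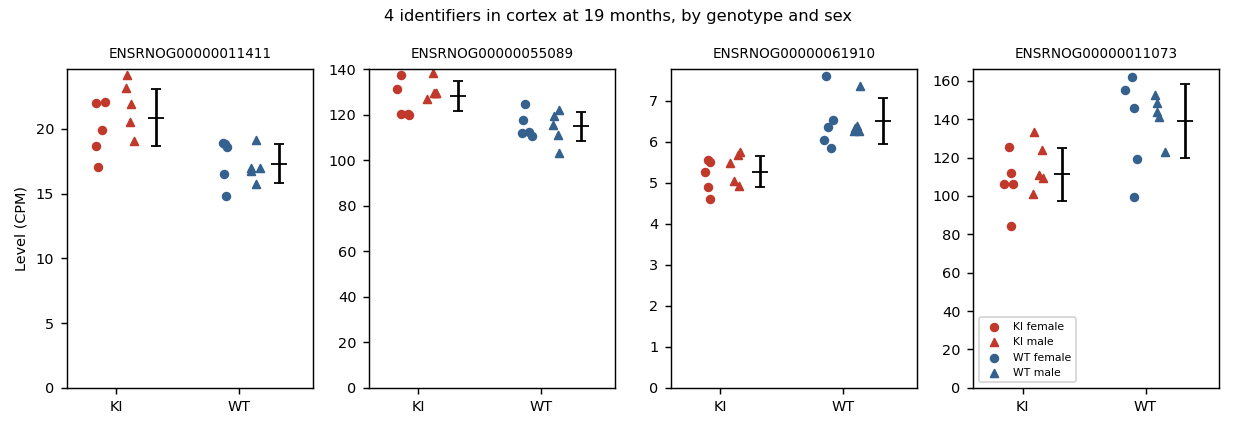
Level in CPM (vertical axis, from 0) of 4 identifiers in each cortex library at 19 months, KI left of WT, with circles for females and triangles for males. Black bars are the mean and SD of 10 animals; the groups do not overlap for ENSRNOG00000061910 and overlap for the other 3.

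ENSRNOG00000011411 was the first of the identifiers higher in KI. It had 17.1 CPM in the lowest KI library, a median of 21.2 CPM and 24.1 CPM in the highest, against 14.8, 16.99 and 19.1 CPM in WT libraries. The groups overlapped, with 7 KI libraries above the highest WT library and 3 within the WT range. The log2 difference was 0.27 ± 0.062 (SE, n = 10 each; unadjusted p = 0.000306, edgeR adjusted p = 0.748). In other cortex libraries it was 0.01 ± 0.070 at 10 months and 0.07 ± 0.102 at 24 months (SE), and at 19 months it was 0.14 ± 0.123 in striatum and -0.07 ± 0.065 in cerebellum.

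ENSRNOG00000055089 was the second. It had 120 CPM in the lowest KI library, a median of 130 CPM and 138 CPM in the highest, against 103, 114 and 125 CPM in WT libraries, and again 7 KI libraries lay above all WT libraries. The log2 difference was 0.16 ± 0.037 (SE, n = 10 each; unadjusted p = 0.000315, edgeR adjusted p = 0.748). It was -0.05 ± 0.040 in cortex at 10 months and 0.15 ± 0.044 at 24 months (SE). The estimated 19-month effect was 0.21 ± 0.055 log2 units above the 10-month effect (SE, edgeR adjusted p = 0.677). The choice of this identifier at 19 months favours that direction.

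For both identifiers the estimated KI effect was higher in cortex than in the cerebellum of the same animals, and whether the difference passed the test depended on the fit. The difference was 0.34 ± 0.078 log2 units for ENSRNOG00000011411 (SE; edgeR adjusted p = 0.0634; DESeq2 adjusted p = 0.0101), and 0.29 ± 0.065 with the library slope described below as a covariate (SE; edgeR adjusted p = 0.0439). For ENSRNOG00000055089 it was 0.22 ± 0.053 log2 units (SE; edgeR adjusted p = 0.0876; DESeq2 adjusted p = 0.0123), and 0.20 ± 0.050 with that covariate (SE; edgeR adjusted p = 0.0807).

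ENSRNOG00000011073 was the second identifier lower in KI. It had 84.1 CPM in the lowest KI library, a median of 110 CPM and 133 CPM in the highest, against 99.5, 145 and 162 CPM in WT libraries. Only 1 KI library lay below the WT range, while 7 WT libraries lay above the highest KI library. The log2 difference was -0.32 ± 0.082 (SE, n = 10 each; 95% interval -0.49 to -0.15; unadjusted p = 0.000771, edgeR adjusted p = 0.748).

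The level of ENSRNOG00000011073 moved with a property of the library. For every library a slope was taken of each gene's deviation from its mean over libraries, in log2 CPM, on the log2 effective transcript length, so that a library with a negative slope holds relatively fewer counts of long transcripts. The slope ran from -0.0667 to 0.0696 in KI libraries and from -0.118 to 0.0476 in WT libraries (means 0.0136 and -0.0136; permutation test, 2-sided, p = 0.186, 0.557 adjusted over 3 measures). The lowest slopes were those of WT female 4 at -0.118, KI female 2 at -0.0667 and WT female 2 at -0.0484. The effective length of ENSRNOG00000011073 is 5.94 times that of the median gene, the 99.8th percentile. Its lowest KI library was KI female 2 and its lowest WT library was WT female 4, the libraries of lowest slope in their groups.

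With the slope as a covariate ENSRNOG00000011073 passed the test, as 1 of 15280 genes (0.00654%), and 461 genes had an unadjusted p under 0.05 (3.02%). The log2 difference was then -0.44 ± 0.038 (SE, n = 10 each; 95% interval -0.51 to -0.36; edgeR adjusted p = 1.27e-06), which puts KI at 74.0% of WT. At a slope of 0 its level was 99.5 to 114 CPM in KI libraries, with a median of 107 CPM, and 133 to 158 CPM in WT libraries, with a median of 141 CPM. Leaving out each library in turn from that fit gave log2 differences of -0.45 to -0.41 for ENSRNOG00000011073 (edgeR adjusted p from 1.15e-06 to 2.36e-05), and it was the 1 gene called in all 20 fits. Without the covariate and without the 3 libraries of lowest slope the log2 difference was -0.36 ± 0.058 (SE; edgeR adjusted p = 0.0696).

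**Figure D3:**
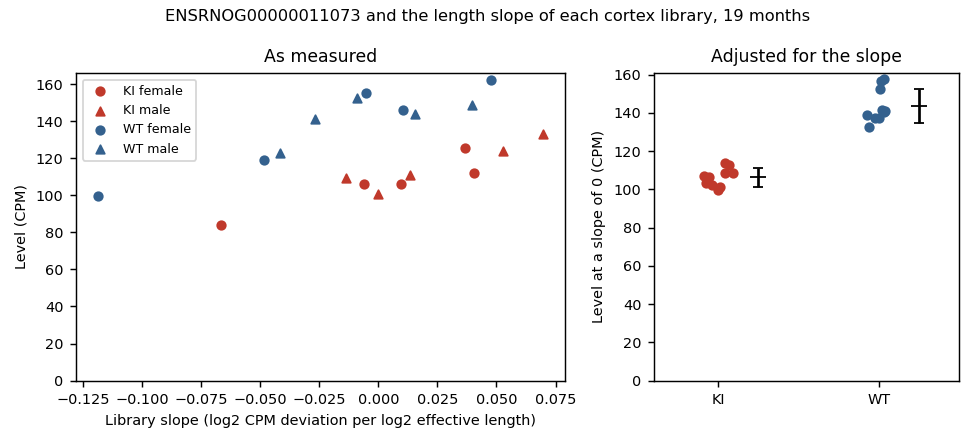
Left, level of ENSRNOG00000011073 in CPM (vertical axis, from 0) against the length slope of the library (horizontal axis) for 10 KI and 10 WT cortex libraries at 19 months. Right, the level at a slope of 0, KI left of WT, with mean and SD; WT libraries run from 133 to 158 CPM and KI libraries from 99.5 to 114 CPM.

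ENSRNOG00000011073 was lower in KI in each of the other comparisons set beside this one. In cortex at 10 months the log2 difference was -0.29 ± 0.112 without the covariate (SE; edgeR adjusted p = 0.647) and -0.39 ± 0.026 with it (SE; edgeR adjusted p = 4.61e-09). The 24-month difference was -0.71 ± 0.122 without it (SE; edgeR adjusted p = 0.765; DESeq2 adjusted p = 0.000936) and -0.58 ± 0.046 with it (SE; edgeR adjusted p = 0.000224). In the same animals at 19 months it fell in striatum, by 0.54 ± 0.088 log2 units (SE; edgeR adjusted p = 0.0247), and in cerebellum, by 0.51 ± 0.082 log2 units (SE; edgeR adjusted p = 0.00103). Its genotype effect was not shown to differ between cortex and striatum (0.24 ± 0.114; edgeR adjusted p = 0.914), between cortex and cerebellum (0.21 ± 0.122; edgeR adjusted p = 0.663) or between the sexes in cortex (-0.06 ± 0.168; edgeR unadjusted p = 0.725), all as log2 differences with SE. An equal sign in both sexes was a condition of the choice of ENSRNOG00000011073, so likeness between the sexes was favoured. Between 24 and 19 months in cortex the effect differed by -0.38 ± 0.150 log2 units (SE, edgeR adjusted p = 0.452). Between 19 and 10 months it differed by -0.03 ± 0.146 (SE, edgeR unadjusted p = 0.827). With the slope as a covariate these differences in effect were 0.10 ± 0.046 for cortex minus striatum, 0.08 ± 0.054 for cortex minus cerebellum, -0.14 ± 0.063 for 24 minus 19 months and -0.05 ± 0.044 for 19 minus 10 months (SE), and none was called by edgeR.

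**Figure D4:**
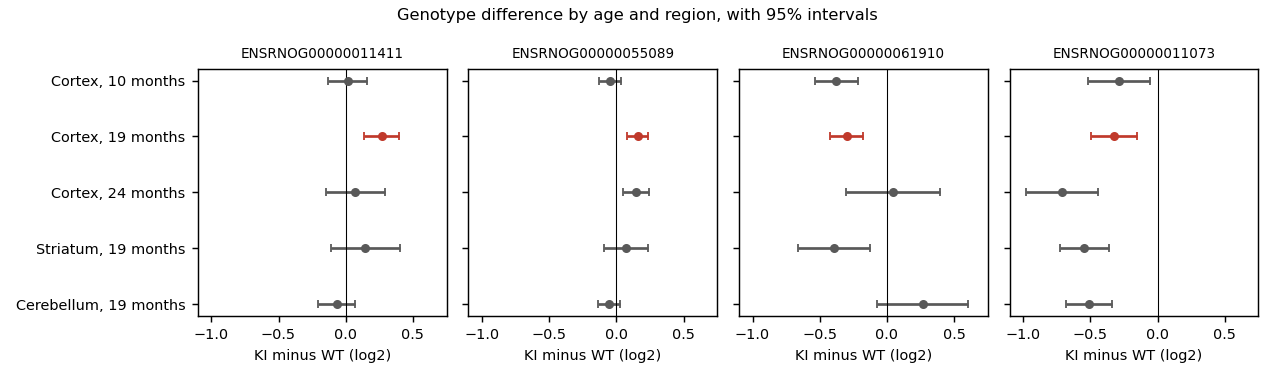
KI minus WT log2 difference (horizontal axis) of 4 identifiers in cortex at 3 ages and in striatum and cerebellum at 19 months (vertical axis); points are edgeR estimates without the slope covariate, bars are 95% intervals, and cortex at 19 months is in red. The interval of ENSRNOG00000011073 lies below 0 in all 5 comparisons, and those of the other 3 include 0 in at least 1.

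Over all genes, genotype differences followed transcript length weakly. The median log2 difference was -0.04 in the tercile of genes with the shortest transcripts (5094 genes), -0.01 in the middle tercile and 0.03 in the longest (5093 each), beside -0.0046 over all genes. Higher in KI were 34.3%, 44.7% and 64.1% of the genes of these terciles. With the slope of the library as a covariate the medians were -0.00125, -0.000118 and -0.0024. The slope is itself fitted on effective length, so a flattening of these medians under the covariate is built in. Without WT female 4, and with no covariate, they were -0.0161, -1.86e-05 and 0.0199.

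Genes that mark a brain region in this series had group medians near 0, each defined in WT libraries of 24 months by a level at least 4-fold that of the other 2 regions. Of 213 cortex-enriched genes tested 0 were called, with 16 at an unadjusted p under 0.05 (7.51%, beside 5.32% of all genes) and a median log2 difference of 0.03. Of 156 striatum-enriched genes 0 were called, with 8 at an unadjusted p under 0.05 (5.13%) and a median of -0.03. Of 229 cerebellum-enriched genes 0 were called, with 19 at an unadjusted p under 0.05 (8.3%) and a median of -0.02. The mean level of the cortex-enriched genes ran from 3.00 to 3.19 log2 CPM in KI libraries and from 2.86 to 3.16 log2 CPM in WT libraries, and the groups overlapped. Without WT female 4 the medians were 0.02 for cortex-enriched, -0.0186 for striatum-enriched and -8e-05 for cerebellum-enriched genes.

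Genes that differ with age in WT cortex had group medians near 0, with single members in both directions. Called between WT animals of 24 and 10 months were 65 genes that rose (0.419% of those tested) and 41 that fell (0.264%). Of 64 of the genes that rose, tested here and chosen in animals that are not in the 19-month comparison, 0 were called, with 9 at an unadjusted p under 0.05 (14.1%, beside 5.32% of all genes), of which 4 were higher and 5 lower in KI. Their median log2 difference was -0.01. Of the 41 genes that fell 0 were called and 2 had an unadjusted p under 0.05 (4.88%), with a median of 0.0045. Without WT female 4 the medians of the age groups were -0.0014 and 0.0158.

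The genotype effect on each gene was compared between ages in the cortex. The 19-month animals carry another series of identifiers than those of 10 and 24 months. A difference between 19 months and either age cannot be told apart from a difference between those series. Between 19 and 10 months edgeR called 0 of 15615 genes (0%), while 472 had an unadjusted p under 0.05 (3.02%); DESeq2 called 1. Between 24 and 19 months edgeR called 0 of 15917 genes (0%), while 1722 had an unadjusted p under 0.05 (10.8%). DESeq2 called 1. In edgeR with the library slope as a covariate 755 genes reached that p between 19 and 10 months. Between 24 and 19 months 532 did, and 0 were called in both fits. The 100 genes with the smallest p at 19 months had the same sign at 10 months in 66 of 99 tested there (66.7%, beside 69.1% of all genes), and at 24 months in 36 of 100 (36%, beside 34.1%). These shares lie near the background.

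The cerebellum of the same 20 animals is where most genes of this series were called at 19 months, and those genes were read in the cortex. Of 194 genes lower in KI cerebellum (1.28% of those tested there), 182 were tested in cortex, where their median log2 difference was -0.03, against -0.27 in cerebellum. In cortex 60 of the 182 were above 0 (33%, beside 47.7% of all genes) and 122 below. There 12 had an unadjusted p under 0.05 (6.59%, beside 5.32% of all genes). Of the 12, 10 were lower and 2 higher in KI cortex. Over all genes 2.87% were lower and 2.45% higher at that p. Of 158 genes higher in KI cerebellum (1.05%), 150 were tested in cortex, with a median of 0.0067, against 0.33 in cerebellum. In cortex 84 of the 150 were above 0 (56%, beside 47.7% of all genes), and 9 had an unadjusted p under 0.05 (6%). Of the 9, 5 were higher and 4 lower in KI cortex. With both directions counted, the shares at that p in both lists lie near the share over all genes. The 95% interval in cortex excluded the cerebellar estimate for 160 of the 182 and 137 of the 150. Those counts take the cerebellar estimates as fixed, although they were selected by their calls. The difference between the regions, tested within animals, was called by edgeR for 22 of the 182 and 25 of the 150. The lists were chosen by calls in the cerebellum of the same animals, so these counts are a description.

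The difference in genotype effect between cortex and cerebellum, tested within animals, was called for 51 of 15858 genes (0.322%; edgeR), 25 with a higher (0.158%) and 26 with a lower (0.164%) effect in cortex, and 1399 had an unadjusted p under 0.05 (8.82%). Of the 51, 47 were called in the cerebellum and 9 had an unadjusted p under 0.05 in the cortex. DESeq2 called 138. Between cortex and striatum edgeR called 0 of 15864 genes (0%), while 379 had an unadjusted p under 0.05 (2.39%); DESeq2 called 1.

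Between the sexes, edgeR called 1 of 15280 genes (0.00654%) for a genotype effect that differed, while 352 had an unadjusted p under 0.05 (2.3%); DESeq2 called 7. The gene, ENSRNOG00000000512, was picked for description with its values known, outside the order of p used above. It had 23.6, 23.5, 24.2, 22.1 and 25.2 CPM in the 5 KI females and 18.1, 17.2, 15.5, 16.8 and 16.6 CPM in the 5 KI males. It had 16.8, 18.4, 18.2, 15.3 and 14.8 CPM in the 5 WT females and 25.8, 23.8, 15.8, 24.6 and 27.0 CPM in the 5 WT males. KI females lay above WT females, KI males lay below 4 of the 5 WT males, and WT male 3 lay with the KI males. The genotype effect was 0.98 ± 0.147 log2 units higher in females than in males (SE; edgeR adjusted p = 0.0208).

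The values of ENSRNOG00000000512 were split at their widest gap, and the low and the high side went with the animal. In cortex 11 animals were at 14.8 to 18.4 CPM and 9 at 22.1 to 27.0 CPM. The same 9 animals were the highest in striatum, at 27.6 to 35.4 CPM against 17.7 to 23.4 CPM for the others, and in cerebellum, at 10.4 to 13.0 CPM against 6.13 to 9.18 CPM. The 9 were 5 KI females and 4 WT males. In the cortex of other animals the widest gap at 10 months lay between 18.1 and 22.04 CPM. Above it were 1 KI male, 5 WT females and 2 WT males. At 24 months the widest gap lay between 19.4 and 22.8 CPM, with 1 KI female, 2 KI males, 1 WT female and 1 WT male above it. Any set of values has a widest gap, and other genes were not compared, so a gap at these ages does not show 2 levels. Leaving out 1 library at a time, the difference in effect stayed at 0.92 to 1.09 log2 units in the 20 fits. The gene was called in 8 of them and not in 12 (edgeR adjusted p up to 0.0753), among the 12 the fit without WT female 4 (edgeR adjusted p = 0.055). Without WT male 3 it had an edgeR adjusted p of 8.82e-06.

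**Figure D5:**
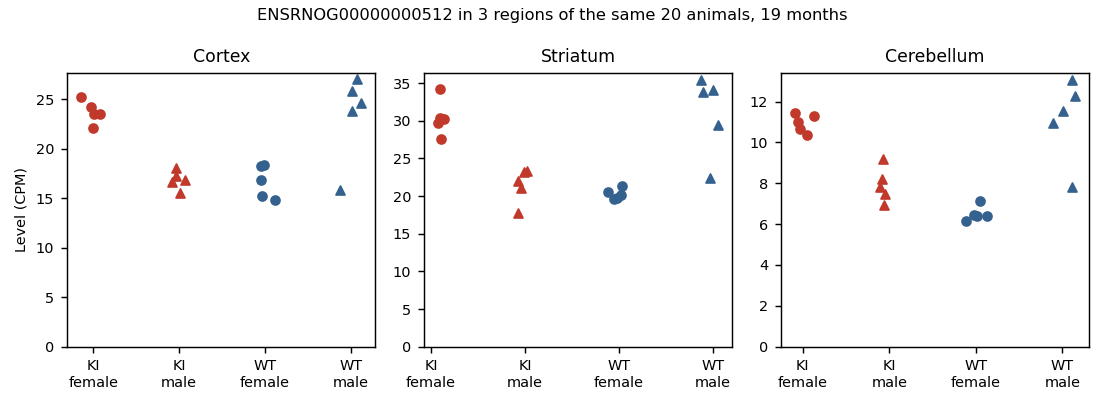
Level of ENSRNOG00000000512 in CPM (vertical axis, from 0, on its own scale in each panel) in cortex, striatum and cerebellum of the same 20 animals at 19 months, by genotype and sex, KI left of WT, 5 animals per column. The 5 KI females and 4 of the 5 WT males are the highest 9 animals in all 3 regions.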

How the data were processed

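RNA-seq libraries, labelled mRNA, were made from flash-frozen tissue, per the labels' protocols. The deposited count table holds estimated counts per Ensembl identifier (8.12% of values not whole), which were rounded here. The authors call the second table FPKM; each library in it sums to 1000000, so these deposited values were handled on the TPM scale. Per the file headers the reference was Rat.B6.0, and the aligner is not given in the sources. The design assumed whole counts.

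Tests used edgeR 4.0.16 (TMM, filterByExpr, robust quasi-likelihood F test, sex as a covariate; animal as a block between regions), with Benjamini-Hochberg adjustment over all genes tested and calls at 0.05. DESeq2 1.42.0 and limma 3.58.1 (log2 of TPM-scale value plus 0.1 or 1, genes with a mean of at least 0.1) were alternatives, beside RLE factors, other filters, no sex term, each sex alone, all ages in 1 fit, a replicate block, the slope covariate and leaving out libraries. Effective length is the ratio of the 2 tables relative to the median gene. Levels are CPM with TMM factors. Scripts were tested on simulated data. In edgeR tests within a region the p-values weigh a difference against the spread between animals. Those between regions weigh it against the spread left after the animal block. The permutation tests reassigned genotype over the libraries.

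Identifiers and lists were chosen with earlier results of these data known. Named were the first 2 identifiers by p in each direction whose mean log2 CPM reached 1 and whose difference had 1 sign in females and in males. Gene lists and cell type markers needed symbols and were not used here.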

Additional observations from a re-analysis of the deposited data

Results flagged for a closer look

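WT female 4 had a mean Spearman correlation of 0.984 with the other cortex libraries of 19 months, far below the rest of the WT group, and lay 12.4 scaled median absolute deviations below the median of all 20 libraries. It was the 1 value flagged among 20 tested by Dixon's 95% critical value, which by its construction flags about 1 in 20 groups. It also had the lowest length slope, at -0.118. ENSRNOG00000000512 had a genotype effect 0.98 log2 units higher in females than in males (edgeR adjusted p = 0.0208). With 1 library left out at a time it was 0.92 to 1.09 log2 units, and was called in 8 of 20 such fits. The genotype effect differed between cortex and cerebellum for 51 genes (edgeR, tested within animals).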

How the results depend on the processing

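Between KI and WT in cortex at 19 months edgeR called 0 genes with RLE factors, other filters, no sex term, each sex alone, all ages in 1 fit, without WT female 4 and without the 3 libraries of lowest slope, 0 in each leave-one-out fit, and 1 with the slope covariate (1 in each leave-one-out fit of that model, so 0 to 1 over all such fits). With the replicate number as a block it called 0 (1199 at an unadjusted p under 0.05). The numbers were not shown to pair the animals. The deviations of 10 same-numbered pairs correlated at -0.17 to 0.46, and 4 exceeded 0.1. Of 20 libraries, 7 correlated best with the library of their own number. Library totals fell with the replicate number in WT females, WT males and KI males, and were lowest at the last numbers in KI females. Sex called 17 genes, 62 with DESeq2 and 15 to 28 leaving out 1 library. Sex by genotype called 1 gene, 7 with DESeq2, 2 with the slope covariate, 0 without WT female 4 and 0 to 2 leaving out 1 library. DESeq2 called 1 gene for 19 against 10 months, 1 for 24 against 19 months, 1 for cortex against striatum and 138 for cortex against cerebellum. For cortex against cerebellum edgeR called 51 genes, and 90 with the slope covariate. For genotype at 10 months in cortex DESeq2 called 16 and the slope covariate 3, at 24 months 4 and 1, each against 0, and in cerebellum 543 and 590 against 352. With the slope covariate 3 values near 0 turned: ENSRNOG00000055089 between 24 and 19 months, 0.0266 against -0.0108, ENSRNOG00000011411 in cortex at 10 months, -0.039 against 0.0136, and ENSRNOG00000061910 at 24 months, -0.0563 against 0.0454. The KI minus WT difference in mean Spearman correlation was -0.00032 without WT female 4, against 0.000508 with it. The causes were not tested. The slope covariate was planned for the genotype comparison and the region groups; for other comparisons it, and leaving out outlying or low-slope libraries, were added after seeing the data. Intervals were widest for scarce genes, with 76.8% of the lowest tercile of level inside 1.5-fold. Symbols were not used here, so the gene lists were not run.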

Other observations

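In the 14473 genes compared over the 20 animals of 19 months, the deviation of a gene from its genotype and sex mean correlated above 0.8 between cortex and striatum for 95 genes, between cortex and cerebellum for 86 genes, and in both for 47, of which ENSRNOG00000000512 is 1. The median correlation over all genes was 0.187 between cortex and striatum and 0.0264 between cortex and cerebellum. Of the 47 genes, 1 had an unadjusted p under 0.05 for genotype in cortex. For ENSRNOG00000000512 the split between KI females and WT males is largely taken out with the group means. WT male 3 lay below every other WT male, at 15.8 CPM in cortex, 22.4 CPM in striatum and 7.84 CPM in cerebellum. How far the correlation of that gene rests on this animal was not tested. The libraries are separate per region but the animals are shared, and these values are a description.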
